A study of Hydra oligactis with 61 samples.

Results

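The 2 transcripts described here were matched to secreted proteins of transforming growth factor beta (TGF-beta) signalling in the freshwater polyp Hydra oligactis. R022197c0g1_i01, called the noggin match below, carries the name of an antagonist of bone morphogenetic proteins (BMPs) in one annotation column of the study and of TRAF4, a cytoplasmic signalling adaptor, in 2 others. R001669c0g1_i01, the GDF8 match, carries the name of a ligand. They are 2 of the 23396 transcripts in the count table, and both were among the 17676 that passed the filter on low counts. They were picked by identifier with results of these libraries already known, and which contrast led to each choice is not recorded. For this reason every comparison in which a transcript changed more than 4-fold with no overlap between groups is given as values and a fold change without a test. The same holds for every other comparison with the groups these displace, which are Foot, Head and HR at 48 hpa for both transcripts and ALP at 12 hpa for the GDF8 match. Smaller changes without overlap could also have led to a choice. Adjusted p of the noggin match that rests on ALP at 3 or 24 hpa is therefore printed as a description only.

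RNA was sequenced from 61 libraries of the Innsbruck 12 strain, each made from a pool of about 30 animals, in 16 groups. Foot and Head were the uninjured body ends, with 5 libraries each. HR (head regeneration) was the tissue next to the oral-facing wound of animals cut across the middle of the body column, with 7 libraries at 0 hours post-amputation (hpa) and 3 each at 3, 12, 24 and 48 hpa. ALP was the tissue next to the aboral-facing wound of animals kept in 5 uM alsterpaullone for 3 h and then washed, with 3 libraries each at 3, 12 and 24 hpa and 4 at 48 hpa. FR (foot regeneration) was the same aboral-facing tissue after DMSO, the solvent of the drug, with 7 libraries at 0 hpa and 3 each at 3, 12, 24 and 48 hpa. HR tissue carried DMSO for the same time, and Foot, Head and the 0 hpa groups briefly. The sources differ on its concentration. Alsterpaullone inhibits the kinase GSK3 and is used in Hydra to switch on Wnt signalling. Libraries held 14550984 to 26108358 counts. The labelled ends carried their markers, with a summed level of 5 foot genes of 443 to 475 CPM in Foot and 5.63 to 10.6 CPM in Head, and of 4 head genes of 272 to 316 CPM in Head and 4.07 to 5.74 CPM in Foot. An FR or ALP pool mixes animals that would regrow a foot with animals that would stay footless, and in such bulk samples fewer cells of a type and less RNA per cell cannot be told apart.

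TGF-beta family ligands are made as precursors, cut by furin-type proteases, and released as dimers that bring together type I and type II receptor kinases, which signal through SMAD proteins. Noggin, chordin and the proteins of the gremlin, cerberus and DAN family are secreted and hold ligands away from their receptors, and tolloid-type proteases cut chordin and free the ligand it holds. GDF8, or myostatin, limits muscle growth in vertebrates and signals through the activin type II receptors, and its close relative GDF11 takes part in patterning the vertebrate body axis. In Hydra vulgaris, a chordin-like antagonist is expressed in head regeneration, a BMP ligand has been described near the tentacles and the foot, and a Nodal-related ligand takes part in setting up the axis of the bud.

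The sequence of the GDF8 match was read from the transcriptome to which the reads were mapped, and its coding end is shown because it carries the features by which a ligand of this family is recognised. The transcript was 1143 bases long, with a longest open frame of 298 codons (bases 17 to 913). The frame held 1 run of codons for arginine, any residue, arginine or lysine, and arginine, a form that furin-type proteases cut, starting at codon 206. After it came 89 codons, of which 9 were cysteine codons, against 12 cysteine codons in the whole frame. In the stretch from the cleavage-type run to the stop codon, 282 bases, capitals mark the run and every in-frame cysteine codon.
GDF8 match: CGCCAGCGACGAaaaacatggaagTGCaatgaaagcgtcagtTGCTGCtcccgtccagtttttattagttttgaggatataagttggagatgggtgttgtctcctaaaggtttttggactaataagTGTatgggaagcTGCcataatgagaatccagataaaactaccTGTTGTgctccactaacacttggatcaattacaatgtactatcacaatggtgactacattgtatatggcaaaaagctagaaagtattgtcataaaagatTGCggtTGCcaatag
The last 2 cysteine codons stand on either side of a single glycine codon, 1 further codon before the stop. Adjacent cysteine codons occurred at 2 earlier places. The sequence of the noggin match and the genome positions of both transcripts were not analysed here.

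Across the 16 groups the noggin match was high at both uninjured ends and at the 48 hpa oral-facing wound, and low everywhere else. It had 36.2, 32.6, 31, 32.3 and 35.1 CPM (counts scaled to a common library total) in Foot libraries, 18.1, 17, 16.8, 17.1 and 22.7 CPM in Head libraries, and 15.5, 14.9 and 11 CPM in HR libraries at 48 hpa. The other 48 libraries, from 13 groups, lay between 0.164 and 3.05 CPM with a median of 1.13 CPM. This corresponds to 3 to 56 counts, whereas the 13 libraries of the 3 high groups had 223 to 663 counts. The ranges of the 3 high groups and of the rest did not overlap.

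Among the low groups, the noggin match was highest in ALP at 24 hpa (2.21, 3.05 and 2.95 CPM) and lowest in ALP at 3 hpa (0.378, 0.164 and 0.516 CPM, from 8, 3 and 11 counts). The 19 FR libraries of all times lay between 0.382 and 1.62 CPM, and the 16 HR libraries before 48 hpa between 0.654 and 2.37 CPM. Ordered by group mean, Foot (33.5 ± 2.15 CPM, SD, n = 5), Head (18.4 ± 2.50 CPM, SD, n = 5), HR at 48 hpa (13.8 ± 2.45 CPM, SD, n = 3) and ALP at 24 hpa (2.74 ± 0.460 CPM, SD, n = 3) came first, and no range among these 4 groups overlapped with the next. From ALP at 24 hpa downwards the ranges of every group overlapped with those of its neighbour, through HR at 24 hpa, HR at 3 hpa, ALP at 48 hpa, FR at 48 hpa, FR at 3 hpa, ALP at 12 hpa, HR at 0 hpa, FR at 12 hpa, HR at 12 hpa, FR at 24 hpa and FR at 0 hpa to ALP at 3 hpa (0.353 ± 0.178 CPM, SD, n = 3).

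The GDF8 match was low where the noggin match was high, and in 1 group more. It was low in the same 3 groups, with 2.84, 3.73, 3.68, 4.00 and 3.66 CPM in Foot libraries, 3.72, 3.48, 4.53, 4.13 and 4.73 CPM in Head libraries, and 0.586, 0.889 and 1.87 CPM in HR libraries at 48 hpa. It was also low in ALP at 12 hpa (3.96, 2.53 and 3.42 CPM), a group in which the noggin match (1.47, 1.03 and 1.02 CPM) was not high. The other 45 libraries, from 12 groups, lay between 8.05 and 25.1 CPM with a median of 14.8 CPM, and none of them overlapped with the 16 libraries of the 4 low groups (0.586 to 4.73 CPM).

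In the order of group means the GDF8 match was highest in ALP at 48 hpa (20.5 ± 3.53 CPM, SD, n = 4), followed by HR at 0 hpa (18.2 ± 2.42 CPM, SD, n = 7) and HR at 12 hpa (18.1 ± 0.939 CPM, SD, n = 3). Neighbouring groups overlapped from there through FR at 12 hpa, HR at 3 hpa, HR at 24 hpa, ALP at 24 hpa, FR at 48 hpa, ALP at 3 hpa, FR at 0 hpa and FR at 3 hpa to FR at 24 hpa (10.5 ± 0.809 CPM, SD, n = 3). A gap separated FR at 24 hpa from Head (4.12 ± 0.525 CPM, SD, n = 5). Head, Foot (3.58 ± 0.436 CPM, SD, n = 5) and ALP at 12 hpa (3.31 ± 0.724 CPM, SD, n = 3) overlapped with their neighbours, and HR at 48 hpa (1.12 ± 0.673 CPM, SD, n = 3) lay below them.

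**Figure D1:**
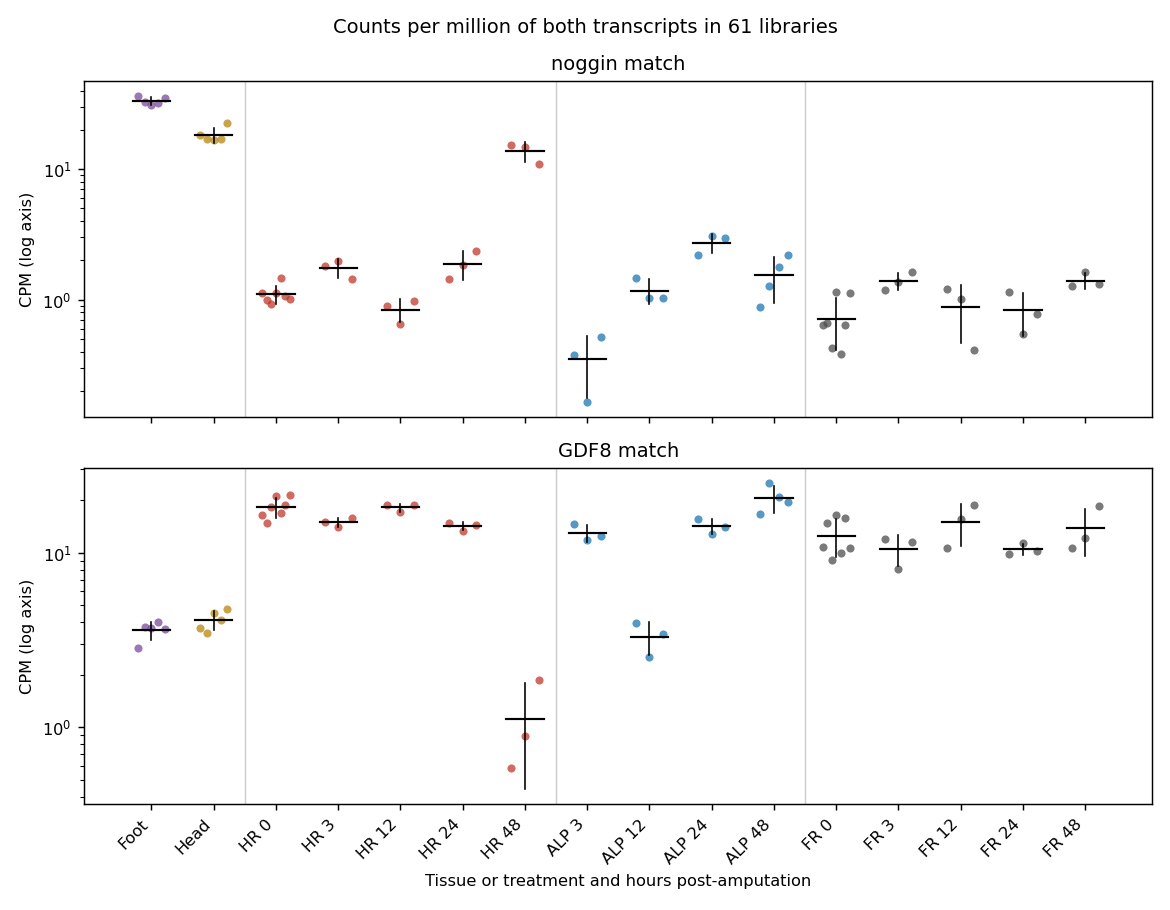
CPM (log axis) of the noggin match (upper panel) and the GDF8 match (lower panel) in all 61 libraries, 1 point per library, with the group mean as a horizontal bar and the SD as a vertical bar; numbers after HR, ALP and FR are hours post-amputation. The noggin match stands above 10 CPM in Foot, Head and HR at 48 hpa, and the GDF8 match stands below 5 CPM in those groups and in ALP at 12 hpa.

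Levels of the 2 transcripts can be set side by side only per length, in FPKM (fragments scaled by transcript length and library depth), which were read for 9 of the 16 groups. At the 48 hpa oral-facing wound the noggin match had 9.96 ± 1.84 FPKM and the GDF8 match 1.30 ± 0.768 FPKM (SD, n = 3 each). In FR at 48 hpa the noggin match had 0.997 ± 0.159 FPKM and the GDF8 match 15.7 ± 4.25 FPKM (SD, n = 3 each). HR at 48 hpa was the one group of these 9 in which the noggin match had the higher FPKM, and FPKM values of ALP, Foot, Head and HR at 3 hpa were not used here.

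**Figure D2:**
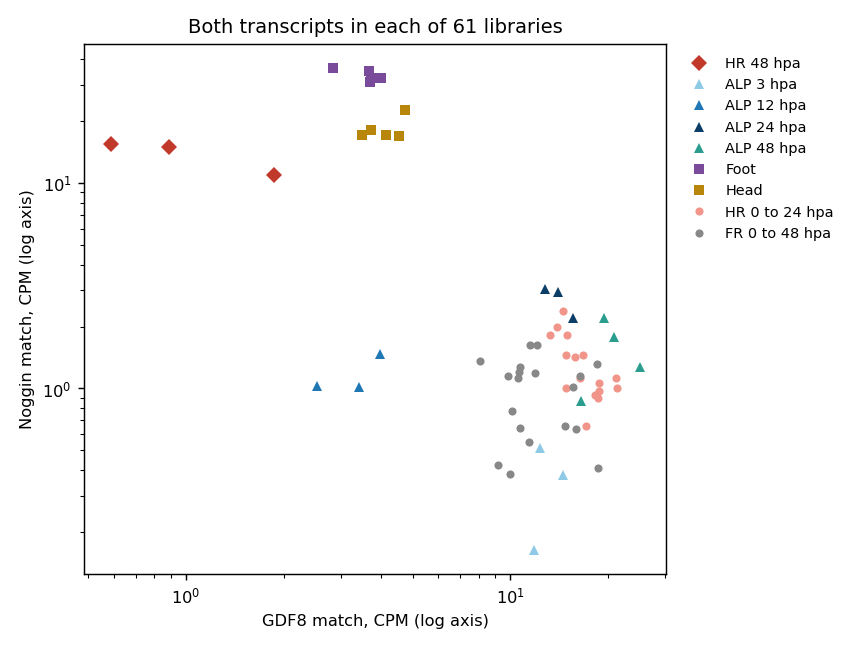
CPM of the noggin match (y, log axis) against those of the GDF8 match (x, log axis), 1 point per library. Foot, Head and HR at 48 hpa lie at the upper left, ALP at 12 hpa at the lower left, and the remaining 45 libraries at the lower right, between 8.05 and 25.1 CPM of the GDF8 match.

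The first set of comparisons asked how the wound that rebuilds a head differs from the wound that should rebuild a foot. At 48 hpa the noggin match had 15.5, 14.9 and 11 CPM in HR, against 1.27, 1.62 and 1.31 CPM in FR, a log2 fold change of 3.30 ± 0.22 (SE), or 9.82-fold. The GDF8 match had 0.586, 0.889 and 1.87 CPM in HR, against 10.7, 12.1 and 18.5 CPM in FR, a log2 fold change of -3.53 ± 0.27 (SE), or 11.5-fold lower. Groups of neither transcript overlapped, as was the case for 37% of all transcripts tested at this time, and 22.7% passed the test in either direction. The HR library with the least noggin match (11 CPM) was the one with the most GDF8 match (1.87 CPM), and without it the log2 fold change of the GDF8 match was -4.20.

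Before 48 hpa, 1 of the 8 comparisons of the 2 wounds passed. The GDF8 match was higher in HR at 0 hpa, with a lowest, median and highest level of 14.8, 18.3 and 21.3 CPM in 7 HR libraries, against 9.14, 10.7 and 16.4 CPM in 7 FR libraries. The log2 fold change was 0.54 ± 0.13 (SE, edgeR quasi-likelihood test, adjusted p = 0.00326), where 3.82% of all transcripts passed. In batch 1 the ranges were 14.8 to 21.2 CPM in 4 HR libraries and 9.14 to 16.4 CPM in 4 FR libraries, and in batch 2 they were 16.8 to 21.3 CPM in 3 HR libraries and 9.99 to 15.9 CPM in 3 FR libraries. The pooled ranges overlapped. The call was lost when only batch 1 libraries were used (log2 fold change 0.48, adjusted p = 0.259). It was also lost when any of 6 single libraries was left out (replicates 1, 3, 5 and 7 of FR, 4 and 7 of HR, adjusted p of 0.0107 to 0.0144). The same held with glmTreat (adjusted p = 0.157), limma on FPKM (adjusted p = 0.02) and only the groups compared (adjusted p = 0.0135). The GDF8 match had 14.9, 13.9 and 15.8 CPM in HR at 3 hpa, against 11.9, 8.05 and 11.5 CPM in FR, and 14.8, 13.3 and 14.5 CPM in HR at 24 hpa, against 9.87, 11.4 and 10.2 CPM in FR. These groups did not overlap (21.9% and 28.6% of all transcripts did not). Neither difference passed the edgeR test, with a log2 fold change of 0.51 ± 0.20 (adjusted p = 0.158) at 3 hpa and 0.45 ± 0.20 (adjusted p = 0.228) at 24 hpa, where 2.94% and 4.46% of all transcripts passed. With only HR and FR at 24 hpa in the fit, adjusted p was 0.000771.

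The noggin match had 1.45, 1.83 and 2.37 CPM in HR at 24 hpa, against 1.15, 0.548 and 0.781 CPM in FR, with no overlap. Its log2 fold change of 1.14 ± 0.31 (SE) fell just short of the threshold of 0.01 (edgeR, adjusted p = 0.0108), and it passed with DESeq2 (adjusted p = 0.00202) and without replicate 1 of FR (adjusted p = 0.00643) or of HR (adjusted p = 0.00799). At 0, 3 and 12 hpa its HR and FR libraries overlapped, with log2 fold changes of 0.58 ± 0.23, 0.32 ± 0.29 and -0.16 ± 0.35 (SE) and adjusted p of 0.142, 0.644 and 0.806 (edgeR). At 12 hpa 8.84% of all transcripts passed, and the GDF8 match, with 18.6, 17.1 and 18.7 CPM in HR, against 10.7, 15.6 and 18.7 CPM in FR, did not (0.29 ± 0.19, adjusted p = 0.327).

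**Figure D3:**
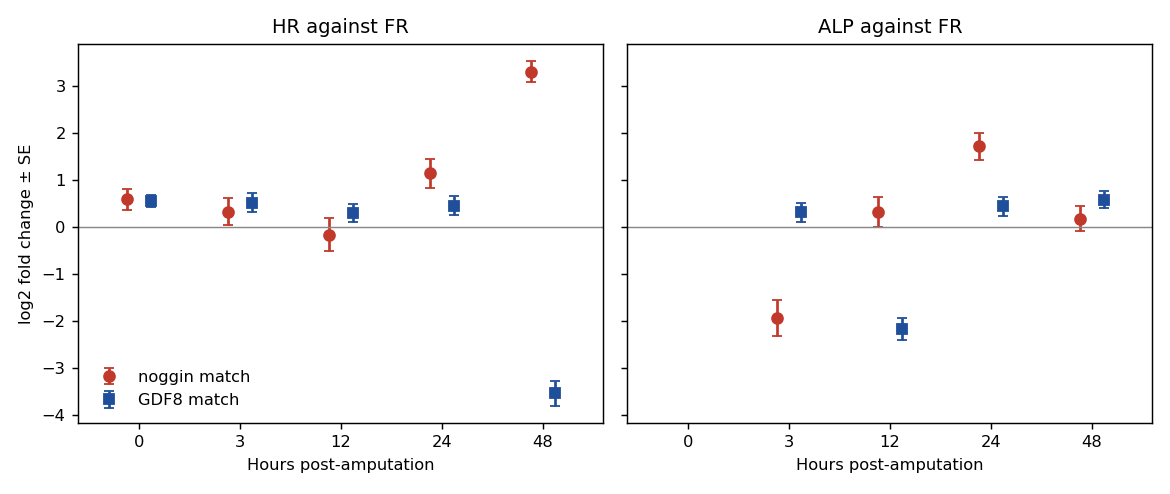
Log2 fold change of both transcripts in HR against FR (left) and in ALP against FR (right) by hours post-amputation (points), with the SE of the edgeR fit (bars). In HR the large changes stand at 48 hpa, and in ALP the noggin match is lowered at 3 hpa and the GDF8 match at 12 hpa, while at 48 hpa both lie within 0.6 of 0.

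The second set asked what a pulse of alsterpaullone changed at the aboral-facing wound. The noggin match was below FR at the end of the pulse and above FR a day after the cut. The GDF8 match was lower than FR at 12 hpa alone among the 4 times. At 3 hpa the noggin match had 0.378, 0.164 and 0.516 CPM in ALP, against 1.19, 1.36 and 1.62 CPM in FR, with no overlap. The log2 fold change was -1.93 ± 0.39 (SE, edgeR, adjusted p = 0.000173), where 13.1% of all transcripts passed and 37.6% did not overlap. This 3.81-fold difference may itself have led to the choice of the transcript, so its adjusted p is a description. The GDF8 match at that time had 14.6, 11.8 and 12.4 CPM in ALP, against 11.9, 8.05 and 11.5 CPM in FR, and the difference did not pass (log2 fold change 0.31 ± 0.20, adjusted p = 0.3, edgeR).

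At 12 hpa, after the drug had been washed out, the GDF8 match had 3.96, 2.53 and 3.42 CPM in ALP, against 10.7, 15.6 and 18.7 CPM in FR, a log2 fold change of -2.17 ± 0.23 (SE), or 4.49-fold lower. The groups did not overlap, as was the case for 30.7% of all transcripts, and 4.01% passed the test. The noggin match overlapped with FR at that time, with 1.47, 1.03 and 1.02 CPM in ALP, against 1.21, 1.02 and 0.411 CPM in FR (log2 fold change 0.32 ± 0.31, edgeR, adjusted p = 0.580).

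At 24 hpa the noggin match had 2.21, 3.05 and 2.95 CPM in ALP, against 1.15, 0.548 and 0.781 CPM in FR, and every ALP library lay above every FR library. It was higher by a log2 fold change of 1.71 ± 0.29 (SE, edgeR, adjusted p = 1.01e-05), where 10.9% of all transcripts passed and 36.3% did not overlap. This 3.27-fold difference too may have led to the choice, so its adjusted p is a description. The GDF8 match had 15.7, 12.8 and 14.1 CPM in ALP, against 9.87, 11.4 and 10.2 CPM in FR. Its groups did not overlap, and the difference did not pass with all libraries in the fit (log2 fold change 0.44 ± 0.20, adjusted p = 0.137), though it did with only the 2 groups in it (0.45, adjusted p = 0.00463).

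At 48 hpa neither transcript passed. The noggin match had 0.874, 1.27, 1.78 and 2.21 CPM in ALP, against 1.27, 1.62 and 1.31 CPM in FR (log2 fold change 0.18 ± 0.26, edgeR, adjusted p = 0.688). The GDF8 match had 16.6, 25.1, 20.8 and 19.5 CPM in ALP, against 10.7, 12.1 and 18.5 CPM in FR, with overlap through 1 library on each side. Its log2 fold change was 0.58 ± 0.18 (SE, edgeR, adjusted p = 0.014), where 16.1% of all transcripts passed. Leaving out replicate 4 of FR gave 0.85 (adjusted p = 0.00117) and replicate 1 of ALP 0.67 (adjusted p = 0.00741).

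The drug effect was then compared between times. For the noggin match, the effect at 12 hpa less that at 3 hpa was 2.25 ± 0.50 on the log2 scale (SE, edgeR, adjusted p = 0.000728), where 13.3% of all transcripts passed. That adjusted p rests on ALP at 3 hpa and is a description. The effect at 24 hpa less that at 12 hpa was 1.39 ± 0.43 (adjusted p = 0.0391, 2.63% of all transcripts passed), and that at 48 hpa less that at 12 hpa was -0.14 ± 0.41 (adjusted p = 0.87, 9.41% passed). For the GDF8 match the same differences were -2.47 ± 0.31, 2.60 ± 0.30 and 2.74 ± 0.29 (SE), given without a test because they rest on the displaced ALP libraries at 12 hpa.

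Marker lists moved with some of these changes, and their part in them was not tested. In HR against FR at 48 hpa, 12.9% of all transcripts were higher and 9.85% lower. The 4 head genes (wnt3, wnt7, wnt9/10c and brachyury1) had a summed 111 to 159 CPM in HR and 11.6 to 14.1 CPM in FR. Of these, 4 of 4 were higher. So were 3 of 3 Wnt response genes (361 to 414 CPM in HR, 134 to 154 CPM in FR), 4 of 5 nerve cell genes (184 to 218 CPM in HR, 115 to 129 CPM in FR) and 2 of 3 gland cell genes (63.3 to 80.4 CPM in HR, 36.1 to 46.9 CPM in FR). Of 5 foot genes, 2 were lower (11 to 18.5 CPM in HR, 25.1 to 26.7 CPM in FR).

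In ALP against FR at 3 hpa, where the noggin match was lower, 6.22% of all transcripts were higher and 6.91% lower. Of 5 foot genes, 2 were lower (10.5 to 14.6 CPM in ALP, 19 to 21.8 CPM in FR). Lower too were 2 of 3 gland cell genes (34.8 to 41.9 CPM in ALP, 44.5 to 50.7 CPM in FR). Of 3 Wnt response genes, 2 were higher (216 to 234 CPM in ALP, 133 to 144 CPM in FR). None of 4 head genes passed (8.24 to 9.1 CPM in ALP, 5.91 to 8.1 CPM in FR). Nor did any of 5 nerve cell genes (70.9 to 94.6 CPM in ALP, 69.2 to 83 CPM in FR). Of these, RFamide match a and RFamide match c had no count in ALP. In ALP against FR at 12 hpa, where the GDF8 match was low, 2.31% of all transcripts were higher and 1.69% lower. Of 5 nerve cell genes, 3 were higher (85.5 to 134 CPM in ALP, 78.6 to 83.3 CPM in FR). In ALP, RFamide match a and RFamide match c had medians of 0 and 0.328 CPM and reached 3.67 and 9.05 CPM in 1 library. RFamide match a had no count in FR. Of 5 foot genes, 2 were higher and 2 lower (27.4 to 34.8 CPM in ALP, 26.2 to 29.6 CPM in FR). One gene was higher in each of the head list (7.31 to 15.9 CPM in ALP, 6.18 to 9.13 CPM in FR), the Wnt response list (167 to 179 CPM in ALP, 118 to 122 CPM in FR) and the gland cell list (47.6 to 58.1 CPM in ALP, 41.3 to 47.4 CPM in FR). One ALP library at 12 hpa, replicate 1, had the highest summed level of both the head list and the nerve cell list, and without it the log2 fold change of the GDF8 match was -2.30.

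In ALP against FR at 24 hpa, where the noggin match was higher, 4.8% of all transcripts were higher and 6.11% lower. Of 5 foot genes, 4 were higher (35.9 to 38.6 CPM in ALP, 19.7 to 23 CPM in FR). The foot gene kiaa1958 had no count in FR. Of 5 nerve cell genes, 2 were lower (113 to 123 CPM in ALP, 131 to 135 CPM in FR). Among 4 head genes, 1 was lower (3.79 to 5.62 CPM in ALP, 8.2 to 11.4 CPM in FR). Of 3 Wnt response genes, 1 was higher and 2 lower (109 to 115 CPM in ALP, 132 to 134 CPM in FR). No gland cell gene of 3 passed (43.5 to 51.5 CPM in ALP, 47.3 to 48.5 CPM in FR).

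Against the freshly cut tissue of the same wound, the noggin match was 12.9-fold higher in HR at 48 hpa (log2 fold change 3.69 ± 0.20, SE) and the GDF8 match 15.3-fold lower (-3.93 ± 0.25, SE), where 35% of all transcripts passed. In HR at 24 hpa the noggin match had a log2 fold change of 0.67 ± 0.27 (edgeR, adjusted p = 0.0485) and the GDF8 match of -0.37 ± 0.18 (adjusted p = 0.114) against 0 hpa, where 23.8% of all transcripts passed. At 3 and 12 hpa neither transcript passed in HR (adjusted p = 0.049 and 0.533 for the noggin match, 0.293 and 0.997 for the GDF8 match, edgeR), where 10.6% and 11.6% of all transcripts passed. The change since 0 hpa in HR less that in FR at 48 hpa was 2.71 ± 0.33 for the noggin match and -4.07 ± 0.30 for the GDF8 match on the log2 scale (SE), where 15.3% of all transcripts passed. At 3, 12 and 24 hpa this difference lay between -0.75 and 0.56 for the noggin match and between -0.25 and -0.03 for the GDF8 match, and none passed (adjusted p of 0.373 or more, edgeR). Of all transcripts 0.0396%, 0.526% and 1.17% passed.

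At the DMSO-treated aboral-facing wound 1 of the 8 comparisons with 0 hpa passed. Against FR at 0 hpa, the GDF8 match had log2 fold changes of -0.25 ± 0.19, 0.26 ± 0.18, -0.27 ± 0.19 and 0.14 ± 0.18 (SE) at 3, 12, 24 and 48 hpa, and none passed (adjusted p = 0.409, 0.347, 0.292 and 0.604, edgeR). Of all transcripts 11.3%, 9.93%, 22.1% and 20% passed. The noggin match had 1.27, 1.62 and 1.31 CPM in FR at 48 hpa, against a lowest, median and highest level of 0.382, 0.643 and 1.15 CPM in 7 FR libraries at 0 hpa. The log2 fold change was 0.98 ± 0.29 (SE, edgeR, adjusted p = 0.0079), and the groups did not overlap (19.2% of all transcripts did not). That call rests on few counts (24 to 33 against 6 to 28) and was lost when any of 8 of the 10 libraries was left out (every one but replicates 4 and 7 of FR at 0 hpa), with adjusted p between 0.0125 and 0.0474 and a log2 fold change between 0.85 and 1.06. At 3 hpa the same transcript had a log2 fold change of 0.98 ± 0.31 (adjusted p = 0.0174) with no overlap (16.5% of all transcripts), which passed with DESeq2 (adjusted p = 0.00482) and without replicate 4 or 7 of FR at 0 hpa (adjusted p = 0.00558 and 0.00844). At 12 and 24 hpa its values were 0.42 ± 0.31 and 0.11 ± 0.32 (adjusted p = 0.4 and 0.841).

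After the drug, levels were above or below those of FR at 0 hpa, depending on the transcript and the time. At 48 hpa neither transcript passed against FR of the same time. Relative to FR at 0 hpa, the noggin match was higher in ALP at 24 hpa (log2 fold change 1.82 ± 0.27, SE, edgeR, adjusted p = 3.03e-07), where 19.6% of all transcripts passed and 22.9% did not overlap. That adjusted p is a description, since these ALP libraries may have led to the choice. The noggin match was also higher at 48 hpa (1.15 ± 0.26, adjusted p = 0.00112, 10.6% passed), though the groups overlapped. That call was lost without replicate 4 of ALP (0.91, adjusted p = 0.0193) and with only the groups compared (adjusted p = 0.089). The replicate block (adjusted p = 0.0923) and only 0 hpa libraries of batch 1 (adjusted p = 0.011) lost it too. At 3 and 12 hpa it did not pass (-0.95 ± 0.39, adjusted p = 0.0528, and 0.73 ± 0.30, adjusted p = 0.0738), where 25.9% and 14.2% passed. The GDF8 match was 3.76-fold lower in ALP at 12 hpa than in FR at 0 hpa (-1.91 ± 0.21, SE, no overlap, as for 18.6% of all transcripts). It was higher at 48 hpa (0.72 ± 0.16, adjusted p = 0.000695), when its 4 libraries (16.6, 25.1, 20.8 and 19.5 CPM) all lay above the 7 of FR at 0 hpa (9.14 to 16.4 CPM, 9.2% of all transcripts did not overlap). That call was lost with only 0 hpa libraries of batch 1 (0.68, adjusted p = 0.0152) and with glmTreat (adjusted p = 0.0201). It was also lost with only the groups compared (adjusted p = 0.0361) and with the replicate block (adjusted p = 0.0279). Between ALP at 12 and 48 hpa the GDF8 match differed 6.17-fold (2.63 ± 0.22, SE), with the higher level at 48 hpa, where 12.5% of all transcripts passed.

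At the uninjured ends both transcripts were far from the level of the middle of the body. The noggin match was 45.3-fold higher in Foot than in FR at 0 hpa (log2 fold change 5.50 ± 0.17, SE) and 16.6-fold higher in Head than in HR at 0 hpa (4.06 ± 0.16, SE). By contrast, the GDF8 match was 3.49-fold lower in Foot than in FR at 0 hpa (-1.80 ± 0.17, SE) and 4.39-fold lower in Head than in HR at 0 hpa (-2.13 ± 0.17, SE). None of these groups overlapped, in a setting where 66.1% of all transcripts passed in Foot against FR at 0 hpa and 77.2% in Head against HR at 0 hpa, and 53.9% and 67.3% did not overlap. The nerve cell list had a summed level of 856 to 990 CPM in Foot and 62.7 to 75.8 CPM in FR at 0 hpa (2 of 5 higher, 1 lower). In Foot that sum lay mostly in RFamide match d (480 to 587 CPM) and the LWamide match (370 to 441 CPM). RFamide match b had 0.459 to 1.21 CPM in Foot, against 7.95 to 13.1 CPM in FR at 0 hpa. In Head the summed level was 1140 to 1470 CPM, against 33.9 to 43.8 CPM in HR at 0 hpa (5 of 5 higher, RFamide match c with no count in HR at 0 hpa). Gland cell genes were low in Foot (5.52 to 9.78 CPM in Foot, 37.5 to 51 CPM in FR at 0 hpa, 3 of 3 lower) and high in Head (374 to 439 CPM in Head, 26.7 to 33.3 CPM in HR at 0 hpa, 2 of 3 higher and 1 lower). The foot list had 14.8 to 22 CPM in FR at 0 hpa (5 of 5 higher in Foot) and 25.1 to 38.3 CPM in HR at 0 hpa (5 of 5 lower in Head). The head list had 4.26 to 8.56 CPM in FR at 0 hpa (2 of 4 lower in Foot, wnt3 with no count in Foot) and 4.05 to 7.95 CPM in HR at 0 hpa (4 of 4 higher in Head). Wnt response genes had 145 to 166 CPM in Foot and 96.1 to 113 CPM in FR at 0 hpa (2 of 3 higher), and 224 to 264 CPM in Head and 105 to 122 CPM in HR at 0 hpa (3 of 3 higher). The part of these lists in the differences was not tested.

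Between the ends, the noggin match had 31 to 36.2 CPM in Foot and 16.8 to 22.7 CPM in Head, a log2 fold change of 0.86 ± 0.13 (SE), where 67.1% of all transcripts passed. The ranges did not overlap, as for 60.3% of all transcripts. The GDF8 match had 2.84 to 4.00 CPM in Foot and 3.48 to 4.73 CPM in Head, with overlap (log2 fold change -0.21 ± 0.21, SE). Neither difference is given a test.

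Regenerating tips were then compared with the structure they should form. At 48 hpa the oral-facing wound had a noggin match level just under that of Head (15.5, 14.9 and 11 CPM in HR, 16.8 to 22.7 CPM in Head, log2 fold change -0.37 ± 0.18, SE), where 65.7% of all transcripts passed. The ranges did not overlap, as for 67.4% of all transcripts. Levels of the GDF8 match were lower there than in Head itself, 3.48-fold (-1.80 ± 0.29, SE, 0.586 to 1.87 CPM in HR, 3.48 to 4.73 CPM in Head). The aboral-facing wound at 48 hpa was far from Foot in both transcripts, with or without the drug. The noggin match was 20.4-fold lower in ALP at 48 hpa than in Foot (-4.35 ± 0.20, SE) and 23-fold lower in FR at 48 hpa than in Foot (-4.52 ± 0.23, SE). The GDF8 match was 5.73-fold higher in ALP (2.52 ± 0.19, SE) and 3.84-fold higher in FR (1.94 ± 0.20, SE) than in Foot. These comparisons share the Foot libraries, and 58.7% of all transcripts passed in ALP and 57.8% in FR.

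The other transcripts with names of TGF-beta or BMP signalling give the background for both. The 36 that were named in the study's annotation comprised 4 ligands, 3 receptors or co-receptors, 11 secreted antagonists, 6 tolloid-type proteases, 8 latent TGF-beta binding proteins, 2 intracellular proteins and 2 homeobox proteins of BMP pathways. All passed the filter. Roles were assigned by name, and some transcripts had another name in another annotation column. Examples are the TGF-beta receptor type 3 match (CUZD1), the LTBP1 match c (pro-epidermal growth factor) and the LTBP2 match a (fibrillin-3). Others are the LTBP2 match b (a CUB and EGF-like domain protein) and the tolloid-like 1 match (nas-30). Many of these names were available because the transcript had been tabulated as enriched in Foot or Head. Counts in comparisons with those tissues follow from that choice and are not given. Tables from which names were read also list transcripts that differed between HR and FR or between ALP and DMSO. The counts and medians below are therefore not independent of how the list was made. In HR against FR at 48 hpa, 10 were higher and 5 lower (12.9% and 9.85% of all transcripts), with a median log2 fold change of 0.26 against -0.01 over all transcripts. In ALP against FR, 0 were higher and 5 lower at 3 hpa (6.22% and 6.91% of all transcripts), 3 and 3 at 12 hpa (2.31% and 1.69%), 8 and 1 at 24 hpa (4.8% and 6.11%), and 10 and 1 at 48 hpa (8.97% and 7.1%). Median log2 fold changes of the 36 in ALP were -0.23, 0.13, 0.12 and 0.31 at 3, 12, 24 and 48 hpa, against -0.02, -0.01, 0 and -0.01 over all transcripts. The count called at 3 hpa ranged from 1 to 5 with 1 library left out (1 without replicate 4 of FR, 2 without replicate 3 of FR or of ALP, 3 without replicate 4 of ALP). That at 12 hpa was 3 without replicate 1 of ALP. At 24 hpa it was 5 without replicate 1 or 2 of ALP or replicate 1 or 3 of FR. At 48 hpa it was 7 without replicate 1 of ALP and 5 without replicate 1 of FR.

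Among the ligands, R037547c0g1_i01, the second GDF8 match, was lower in the same 2 comparisons as the GDF8 match. It had 1.17, 2.25 and 2.23 CPM in HR at 48 hpa, against 7.79, 10.3 and 6.45 CPM in FR (log2 fold change -2.10, edgeR, adjusted p = 7.83e-08). It had 6.21, 4.08 and 6.23 CPM in ALP at 12 hpa, against 10.4, 13.2 and 10.6 CPM in FR (-1.06, adjusted p = 0.00423). Whether reads were divided between the 2 GDF8 matches was not tested. Chosen after its values were seen, the activin receptor type-2A match, which carries the name of the type II receptor of activin and GDF8, had 35.6, 38.1 and 36.7 CPM in HR at 48 hpa, against 21.8, 25.1 and 22.7 CPM in FR (log2 fold change 0.67, adjusted p = 1.07e-08). It was lower in ALP at 3 hpa (26.8, 25.9 and 26.4 CPM in ALP, 29.7, 35.1 and 36 CPM in FR, adjusted p = 0.00234) and higher at 12 hpa (28.6, 28.3 and 26.3 CPM in ALP, 21.1, 21 and 21.2 CPM in FR, adjusted p = 0.00194) and 24 hpa (adjusted p = 0.000187).

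Among the other secreted antagonists, the DAND5 match d was lower in HR at 48 hpa (3.36, 4.6 and 3.59 CPM, against 9.02, 8.80 and 10.1 CPM in FR, log2 fold change -1.27, edgeR, adjusted p = 9.02e-09) and in ALP at 12 hpa (5.19, 4.40 and 5.72 CPM, against 8.32, 12 and 11.7 CPM in FR, -1.06, adjusted p = 3.72e-06). The NBL1 match b had 5.94, 7.91 and 8.10 CPM in ALP at 24 hpa, against 1.75, 0.975 and 1.37 CPM in FR (2.40, adjusted p = 6.64e-07), and was higher again at 48 hpa (1.89, adjusted p = 1.07e-06). Its level was 264 to 358 CPM in Foot and 0.322 to 0.914 CPM in Head. The gremlin-1 match was lower in ALP at 48 hpa (-0.56, adjusted p = 0.00984).

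Of the 6 tolloid-type proteases, HR at 48 hpa had 3 above FR and 1 below it, where 12.9% of all transcripts were higher and 9.85% lower. The BMP1 match b, named after the protease that cuts chordin and procollagen, had 60.9, 69.7 and 78 CPM in HR at 48 hpa, against 8.36, 10.3 and 11.6 CPM in FR (log2 fold change 2.80, edgeR, adjusted p = 2.41e-21). After the drug it was lower at 3 hpa (17.5, 17.8 and 17.1 CPM in ALP, 38.4, 35.9 and 52.3 CPM in FR, -1.27, adjusted p = 5.23e-09) and higher at 24 hpa (67, 68.7 and 70.5 CPM in ALP, 12, 10.7 and 13 CPM in FR, 2.52, adjusted p = 1.48e-18). It was also higher at 12 hpa (1.36, adjusted p = 5.26e-10), where the noggin match did not pass. The transcript tld, named tolloid in one annotation column and membrane frizzled-related protein in another, was higher in ALP at 48 hpa (6.49, 8.62, 13 and 12.9 CPM, against 3.61, 5.97 and 3.17 CPM in FR, 1.31, adjusted p = 5.89e-05). The BMP1 match a was lower in ALP at 24 hpa (-0.68, adjusted p = 0.00635).

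Latent TGF-beta binding proteins, which hold ligands in the extracellular matrix in vertebrates, were higher in 4 of 8 cases in HR at 48 hpa, where 12.9% of all transcripts were higher. In ALP they were higher in 3 of 8 cases at 24 hpa (4.8% of all transcripts) and at 48 hpa (8.97%), and lower in 1 of 8 at 3 hpa (6.91%). These shares are not independent of how the list was made, since many of its names came from transcripts tabulated as enriched in Foot or Head. Tables of differences between HR and FR or between ALP and DMSO were also read for names. The LTBP1 match c and both LTBP2 matches had another name in another annotation column. The 1 that was lower, the LTBP1 match e, had a log2 fold change of -0.90 (adjusted p = 0.00726, edgeR). The LTBP1 match d was higher in ALP at 12 hpa (1.11, adjusted p = 0.00337), where 1 library (32 CPM) stood far above the other 2 (14.9 and 13.9 CPM). The vab-15 match, named after a Caenorhabditis elegans msh-type homeobox gene of a family that responds to BMPs in vertebrates, had 2.24, 3.24 and 4.22 CPM in HR at 48 hpa, against 16.7, 13.3 and 18.5 CPM in FR (-2.29, adjusted p = 2.32e-16). It had 5.48, 6 and 6.18 CPM in ALP at 12 hpa, against 13.5, 13.8 and 11.6 CPM in FR (-1.15, adjusted p = 6.08e-07). It was not low in Foot (11.3 to 14.2 CPM), unlike the GDF8 match, but in Head it lay below its level in HR at 48 hpa. The vent1 match, named after a BMP-induced homeobox gene of Xenopus, had 14.1, 12.3 and 12.6 CPM in HR at 48 hpa, against 2.49, 2.51 and 1.42 CPM in FR (2.58, adjusted p = 4.05e-14).

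**Figure D4:**
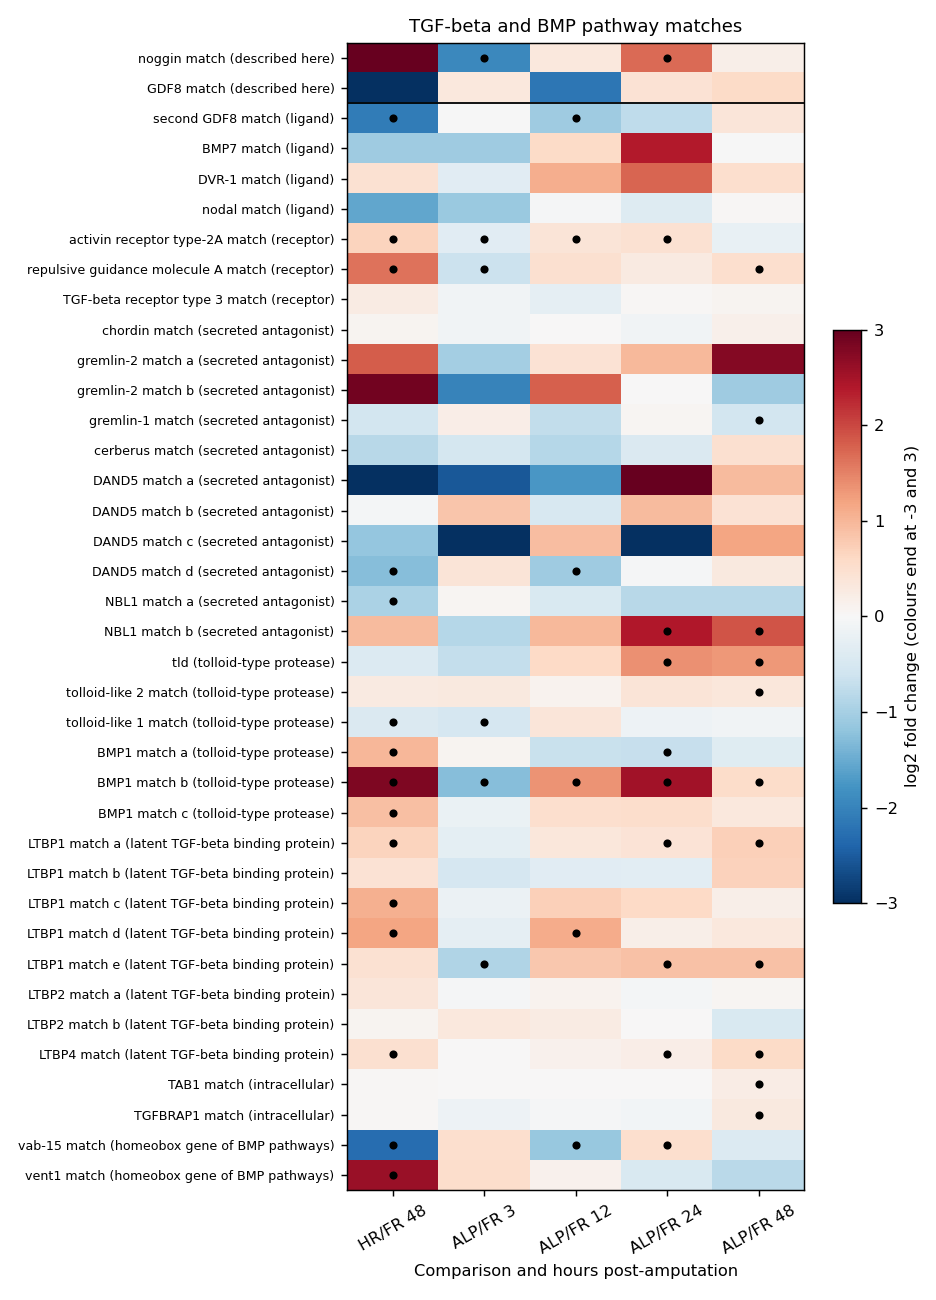
Log2 fold change (colour, from -3 in blue to 3 in red, values beyond shown at the end colours) of the noggin match, the GDF8 match and 36 other transcripts named after TGF-beta or BMP proteins (rows, role in parentheses) in HR against FR at 48 hpa and in ALP against FR at 3, 12, 24 and 48 hpa (columns); black dots mark adjusted p under 0.01, and are not drawn for the comparisons of the noggin and GDF8 matches given without a test. The GDF8 match, the second GDF8 match, the DAND5 match d and the vab-15 match are lower both in HR at 48 hpa and in ALP at 12 hpa.

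Likeness was measured as Pearson's r of batch-adjusted mean log2 CPM over the 16 groups, as a description over points that share libraries and tissues. Candidates were 14960 transcripts with a mean log2 CPM above 0, of which 2378 had a protein name. The named transcripts most like the noggin match were matches to ABC transporter G family member 22 (R030216c0g1_i01, r = 0.965), neurexin-1a, a presynaptic adhesion protein (R040109c0g1_i04, r = 0.958), calmodulin, a calcium sensor (R032202c0g1_i01, r = 0.954), a reverse transcriptase of a mobile element (R037028c3g2_i01, r = 0.950) and sprouty homolog 2, an inhibitor of receptor tyrosine kinase signalling (R023243c0g1_i01, r = 0.950). The ABC transporter match ranked 1 among all candidates and averaged 51.4 CPM in Foot, 25 CPM in Head and 17.4 CPM in HR at 48 hpa, against 1.58 CPM in FR at 0 hpa. In the pathway list, the repulsive guidance molecule A match, named after a BMP co-receptor, was most like it (r = 0.945).

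No named transcript followed the GDF8 match closely. The nearest was the epithelial membrane protein 1 match (R013099c0g2_i01, r = 0.716, rank 24 among all candidates), which had 4.02 CPM in ALP at 12 hpa and 5.93 CPM in FR at 12 hpa. The next were matches to protein phosphatase methylesterase 1, peptidyl-tRNA hydrolase 2, folate receptor gamma and ARMT1, with r between 0.690 and 0.711. In the pathway list r was highest for the vab-15 match (0.603) and the second GDF8 match (0.593).

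The names themselves have limits. With noggin in one annotation column and TRAF4 in 2 others, the role of the noggin match as an antagonist is not settled by the annotation. Of 3 further transcripts named TRAF4, 1 (TRAF4 match b) was higher in HR against FR at 48 hpa (28.2 CPM in HR, 10.9 CPM in FR, log2 fold change 1.37, edgeR, adjusted p = 8.42e-14). Its level was 11.8 CPM in Foot and 213 CPM in Head, whereas the noggin match had 31 to 36.2 CPM in Foot and 16.8 to 22.7 CPM in Head. The TRAF4 match c was higher in Foot, as the noggin match was, with 9.87 to 13.7 CPM in Foot and 2.97 to 4.71 CPM in Head. The TRAF4 match a had overlapping levels (12.3 to 15 CPM in Foot, 14.1 to 15 CPM in Head). The GDF8 match was named GDF8 in the columns of protein and gene names and GDF11 in the column of human orthologues.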

How the data were processed

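The authors trimmed paired poly(A) RNA-seq reads (Trimmomatic 0.39 per the labels, although the sources differ on the version), mapped them with Bowtie2 to a Hydra oligactis transcriptome of the Cold Resistant Swiss strain, another strain than the one sequenced, reduced for redundancy, and deposited RSEM expected counts per transcript (5.33% not whole, rounded here). They also deposited FPKM values, of which 35 columns were used and 4 could not be assigned to a sample. Totals were 14550984 to 26108358 counts per library. Libraries were assigned by column name, 30 to a sample and 31 to a group only. Per the design text they were sequenced in 2 batches: 24 hpa in batch 2, 0 hpa in both, and 3, 12 and 48 hpa in batch 1. Batch was not shown for Foot and Head columns, which were given 0.4 (batch 1 as 0, batch 2 as 1).

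Counts were filtered (filterByExpr, minimum count 10), scaled by TMM and fitted over all 61 libraries with group and batch terms in edgeR 4.0.16 (glmQLFit, glmQLFTest, R 4.3.3). Adjusted p is Benjamini-Hochberg over 17676 transcripts, called under 0.01, and "passed" means called. CPM used TMM-scaled totals. Likeness used a prior count of 2 and limma 3.58.1. Both transcripts and all lists were chosen with earlier results of these data known. Named pathway transcripts were the 2 called rises and 2 called falls largest in each of 5 comparisons (mean log2 CPM above 0), and likeness named 5 transcripts each. The activin receptor and the TRAF4 names were added after their values were seen. Alternatives used DESeq2 1.42.0, RLE factors, no filter, no batch term, ComBat_seq (sva 3.50.0), only the groups compared, a replicate block, glmTreat (minimum fold 1.2), an adjusted p under 0.05, limma on log2(FPKM + 0.5), 0 hpa libraries of 1 batch, and each library left out in turn, with the dispersion trend kept. No 2 libraries of a group agreed within sampling noise. The sources call the pools biological replicates, and p-values measure the spread between pools.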

Additional observations from a re-analysis of the deposited data

Results flagged for a closer look

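Single libraries stood far from their group for the noggin match in 2 of the groups with 4 or more libraries. One of the 7 HR libraries at 0 hpa had 1.46 CPM, against 0.931 to 1.13 CPM in the other 6, and one of the 5 Head libraries had 22.7 CPM, against 16.8 to 18.1 CPM in the other 4. Chance marks about 1 in 20 groups in this way, and 10 groups were examined over both transcripts.

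Differences between wounds or times set aside for a closer look were those at 48 hpa and those around the drug pulse. They include comparisons given above without a test, and their values are a description. The change since 0 hpa in HR less that in FR at 48 hpa was -4.07 for the GDF8 match and 2.71 for the noggin match (log2). The drug effect at 12 hpa less that at 3 hpa was -2.47 for the GDF8 match and 2.25 for the noggin match, so the 2 transcripts moved in opposite directions over the same interval. For the GDF8 match the effect at 24 hpa less that at 12 hpa was 2.60, and that at 48 hpa less that at 12 hpa was 2.74. ALP at 24 hpa and FR at 24 hpa come from batch 2 and the other ALP times from batch 1.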

How the results depend on the processing

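In ALP against FR, the noggin match kept its side of the threshold at 3, 12, 24 and 48 hpa, and the GDF8 match at 3 hpa, under every alternative run, single libraries left out included. For the noggin match at 3 and 24 hpa this does not make the calls independent of how it was chosen. Over the alternatives run, log2 fold changes given without a test were 2.79 to 3.44 (noggin match) and -4.20 to -3.22 (GDF8 match) in HR against FR at 48 hpa, -2.37 to -1.99 (GDF8 match) in ALP against FR at 12 hpa, 5.35 to 5.66 (noggin match) and -1.91 to -1.72 (GDF8 match) in Foot against FR at 0 hpa, and 0.71 to 0.95 (noggin match) and -0.31 to -0.16 (GDF8 match) in Foot against Head. The noggin match in ALP against FR at 48 hpa (0.18, not called) was -0.0038 with the replicate block and -0.07 without replicate 4 of ALP. The GDF8 match in ALP against FR at 24 hpa (log2 fold change 0.44, not called) passed with only the groups compared (0.45, adjusted p = 0.00463) and with the replicate block (0.45, adjusted p = 0.00592). At 48 hpa (0.58, not called) it passed with ComBat_seq counts (0.58, adjusted p = 0.00716), DESeq2 (0.57, adjusted p = 0.00934) and a threshold of 0.05 (0.58), and ranged from 0.42 to 0.85 with single libraries left out. The replicate block changed no other call in ALP against FR. Deviations of same-numbered libraries from their group means had correlations of -0.11 to 0.149. These were computed for ALP against FR, HR against FR at 48 hpa and Foot against Head only. In some pairs the same-numbered library was the closest partner, and in others it was not, so a weak shared replicate effect is not excluded.

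Pathway transcripts called in ALP against FR were 5, 6, 9 and 11 in number at 3, 12, 24 and 48 hpa. With glmTreat there were 1, 3, 3 and 4, with a threshold of 0.05 they numbered 9 at 3 hpa and 13 at 12 hpa, and with only the groups compared 14 at 24 hpa and 4 at 48 hpa. With single libraries left out they ranged from 1 to 5 (3 hpa), 3 to 6 (12 hpa), 5 to 6 (24 hpa) and 5 to 11 (48 hpa). The noggin match had 3 to 56 counts per library outside Foot, Head and HR at 48 hpa, which limits its precision there. FPKM alternatives could not be fitted for ALP, Foot, Head and HR at 3 hpa.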
